A study of Mus musculus with 192 samples.

Results

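Nucleotides can be built anew from small precursors or recovered from nucleosides and bases, and 6 mouse genes of the second route were followed here through every stimulation of the series: Upp1, Pnp, Pnp2, Hprt, Dck and Ampd3. They were chosen by name, with their differences between single stimulations and the unstimulated control already known, so every contrast with the control is given below as a description. Counts of conditions past a criterion against the control stand beside the share over all genes, and nothing is read from that pair of values. The 6 genes are among 23481 in the count table, and all 6 passed the filter on low counts that left 4720 genes for testing. Pnp2 and Ampd3 were sparse, with 1157 and 726 counts over all libraries, against 77575 for Pnp, 6286 for Upp1, 4688 for Dck and 4009 for Hprt.

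The cells were dendritic cells grown from the bone marrow of C57BL/6J females aged 6 to 8 weeks, kept with 15 ng/mL of the growth factor GM-CSF in every group, the control included. They were stimulated for 6 h with ligands of innate immune sensors: PAM, LPS (bacterial lipopolysaccharide), HMW, Zymosan (a depleted zymosan preparation, per the labels), SeV, cGAMP (3',3'-cGAMP) and CpGB. The group named Ctrl had none of them, 7 groups had a single ligand, 21 had one of the possible pairs and 35 one of the triplets. With 3 libraries each, this makes 64 groups. Nothing in the labels says that the 3 libraries of a group come from separate cultures or animals, so p-values measure the spread between these libraries. Doses are not given in the labels.

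In the salvage route, phosphorylases release the base from a nucleoside, phosphoribosyltransferases turn a base back into a nucleotide, and kinases phosphorylate a whole nucleoside. Upp1 encodes uridine phosphorylase, which splits uridine into uracil and ribose phosphate, and Pnp and Pnp2 encode purine nucleoside phosphorylases, which split inosine and guanosine in the same way. Hprt turns hypoxanthine and guanine into nucleotides, Dck phosphorylates deoxynucleosides, and Ampd3 deaminates AMP to IMP and so links adenine to hypoxanthine nucleotides.

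Library totals ran from 46564 to 610234 unique molecular identifiers (UMIs, 1 per captured cDNA molecule), with a median of 171616.5, and the control libraries were shallow at 61823 to 89530. Levels are given as CPM (counts scaled to a common library total of 1e6) after edgeR's TMM scaling, and a level of 1 gene is compared only with that of the same gene. In bulk samples such as these, fewer cells of a type and less RNA per cell cannot be told apart. Of the defining dendritic cell markers, Flt3 reached at most 9.34 CPM and Zbtb46 at most 17.1 CPM in a group mean. The summed level of 8 dendritic cell markers was lowest in Ctrl (5080 CPM) and had a median of 6430 CPM over the groups. These markers did not move as a set: in Ctrl, Itgax (421 CPM, median 294) and Flt3 (4.62 CPM, median 2.33) lay above their medians. The others lay below, among them Ccr7 (196 CPM, median 449) and Cd86 (35.5 CPM, median 273). The sum of 5 macrophage markers was highest in Ctrl at 12000 CPM, against a median of 7900 and a lowest of 6300 CPM. T, B and mast cell markers stayed at or below 15.6 CPM per list and Cd3e was at 0 in every library, whereas 6 neutrophil markers summed to 460 to 918 CPM. The macrophage sum was highest where Hprt was high and Pnp low, in Ctrl, and the part of these markers in the results was not tested.

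The sequences just around the transcription starts are shown for the 4 genes whose levels separate the stimulations below, to show which short motifs lie there. Each line gives 250 bases before to 50 after a RefSeq transcript start in GRCm38.p6, plus strand, 5' to 3', with motif letters in capitals. The windows are chr11:9117758-9118057 for Upp1, chr7:110772354-110772653 for Ampd3 (the second of 3 starts), chr14:50944053-50944352 for Pnp and chr5:88764763-88765062 for Dck.
Upp1: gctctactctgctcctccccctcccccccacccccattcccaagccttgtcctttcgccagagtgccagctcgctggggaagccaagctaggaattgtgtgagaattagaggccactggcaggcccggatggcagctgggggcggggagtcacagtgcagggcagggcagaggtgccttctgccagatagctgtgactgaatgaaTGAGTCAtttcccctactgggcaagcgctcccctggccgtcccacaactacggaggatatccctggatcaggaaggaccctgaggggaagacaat
Ampd3: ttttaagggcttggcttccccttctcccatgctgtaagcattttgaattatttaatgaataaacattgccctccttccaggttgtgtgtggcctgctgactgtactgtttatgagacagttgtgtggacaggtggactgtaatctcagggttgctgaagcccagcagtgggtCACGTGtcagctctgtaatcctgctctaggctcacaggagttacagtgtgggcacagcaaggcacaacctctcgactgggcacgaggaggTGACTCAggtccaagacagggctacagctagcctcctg
Pnp: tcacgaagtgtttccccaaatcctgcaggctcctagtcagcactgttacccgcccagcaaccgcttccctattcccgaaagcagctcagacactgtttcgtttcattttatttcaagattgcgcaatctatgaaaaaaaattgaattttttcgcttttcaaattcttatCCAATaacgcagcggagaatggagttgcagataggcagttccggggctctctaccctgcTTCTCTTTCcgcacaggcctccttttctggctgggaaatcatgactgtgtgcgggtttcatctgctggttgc
Dck: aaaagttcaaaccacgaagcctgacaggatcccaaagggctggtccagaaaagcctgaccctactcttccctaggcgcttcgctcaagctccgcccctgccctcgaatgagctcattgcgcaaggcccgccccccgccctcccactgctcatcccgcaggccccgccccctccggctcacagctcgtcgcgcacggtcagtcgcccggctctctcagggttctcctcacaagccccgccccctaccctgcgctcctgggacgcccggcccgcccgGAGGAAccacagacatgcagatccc
In the Upp1 window the capitals mark TGAGTCA, a match to the AP-1 motif TGANTCA, 45 bases before the start, and 1 further Upp1 start has a window that holds the same letters. In the Ampd3 window they mark the E-box CACGTG, 78 bases before the start, and TGACTCA, another AP-1 match, 12 bases after it. The other 2 Ampd3 windows and the third Upp1 window hold neither AP-1 letters nor an E-box: of the Ampd3 ones the first has a CCAAT box and the third a CCAAT box and 2 PU.1 cores, and the Upp1 one has none of the motifs searched. In the Pnp window they mark a CCAAT box and TTCTCTTTC, which on the opposite strand reads as the interferon response core GAAANNGAA, 22 bases before the start. In the Dck window they mark GAGGAA, a PU.1 core. On either strand, AP-1 letters were present in 7.81% of 32851 windows of this length, the E-box in 7.15%, the interferon response core in 8.56%, the PU.1 core in 28.3% and the CCAAT box in 37.4%. The Hprt window held none of the 9 motifs searched, which also were GAS (TTCNNNGAA, in 8.3% of windows), NF-kB (in 8.46%), CRE (TGACGTCA, in 1.79%) and the TATA box (TATAAA, in 13.6%). A match describes the letters and is not evidence of binding.

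Upp1 had no count in any of the 3 Ctrl libraries, where 3 counts over the group would have been 11.7 CPM. The gene (ENSMUSG00000020407.13) lies at chr11:9118103-9136170 on the plus strand of GRCm38. Under cGAMP it was at 183, 117 and 166 CPM, under LPS at 96.8, 183 and 166 CPM, and under SeV at 191, 122.6 and 127 CPM. These 3 ligands overlapped one another, and SeV and cGAMP lay above the other 4 in every library. CpGB followed at 38.8, 56.2 and 106 CPM and PAM at 45.9, 40.2 and 61.1 CPM. Zymosan gave 64.4, 12.8 and 18.7 CPM and HMW 0, 17.9 and 13.9 CPM. The highest CpGB library exceeded the lowest LPS library, and in the order of means SeV and CpGB were the only neighbours whose libraries did not overlap. Against the 3-count floor of the Ctrl group, Upp1 was at least 13.2-fold higher under LPS, 12.9-fold under cGAMP, 12.02-fold under SeV, 6.30-fold under CpGB, 4.18-fold under PAM and 2.32-fold under Zymosan. These bounds use counts pooled over the 3 libraries of a group, so they differ a little from a ratio of mean CPM. No bound is given for HMW, whose mean of 10.6 CPM lies under the floor.

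The Upp1 levels of combinations ranged from those of the weak single ligands to well above the strongest ones. PAM+SeV+cGAMP had the highest mean of all groups, with 310, 356 and 390 CPM, at least 29.7-fold above Ctrl. HMW+Zymosan+cGAMP reached 339, 423 and 259 CPM, although HMW+Zymosan alone stood at 25.4, 17.7 and 43.8 CPM. The lowest triplet was PAM+HMW+CpGB, at 22.9, 45.8 and 49.2 CPM, which overlapped the single ligands PAM and CpGB. All 22 conditions with cGAMP lay at 121 CPM or above (median 264), and all 22 with LPS did as well (median 227), whereas conditions without cGAMP went down to 10.6 CPM. Over the 63 stimulated conditions, 62 met the criterion of an adjusted p under 0.05 and a log2 difference from Ctrl of at least 1, and HMW did not. Among all tested genes and conditions 14.3% met it in the higher direction, and over the 7 single ligands, where Upp1 met it in 6, 8.7% did.

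**Figure D1:**
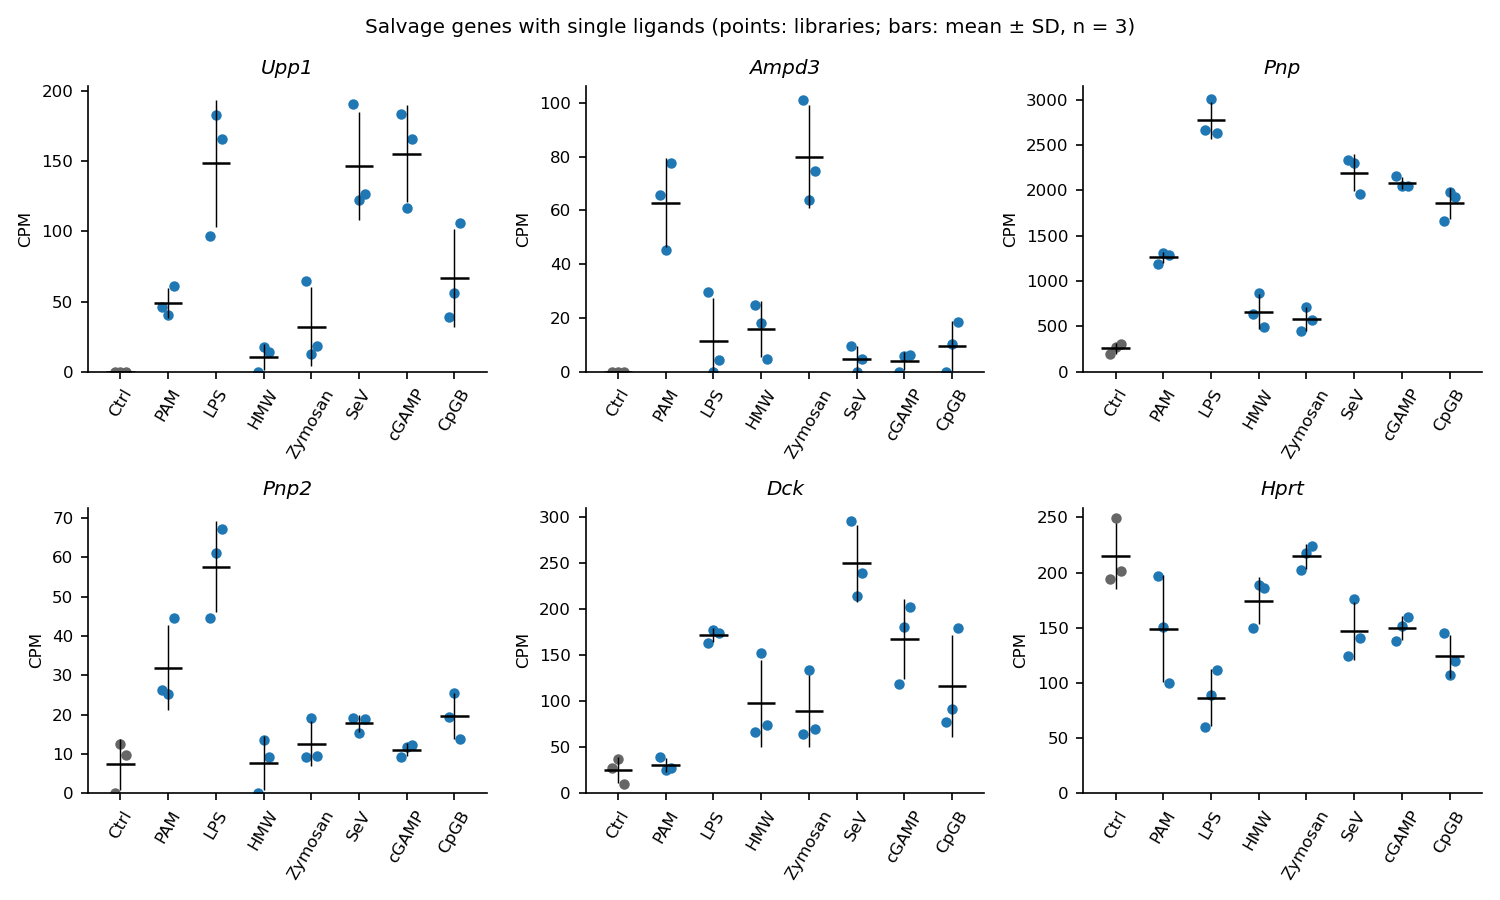
Normalised level (CPM, linear axis) of each of the 6 genes in Ctrl and under the 7 single ligands, with 1 point per library and the mean ± SD of 3 libraries, bars cut at 0. Upp1 is at 0 in Ctrl and at 96.8 CPM or above in every LPS, SeV and cGAMP library, Ampd3 stands apart under PAM and Zymosan, and Hprt is lowest under LPS.

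What a ligand added when others were already present was tested without the control libraries, as the log2 difference with minus without that ligand, averaged over 21 backgrounds (the 6 other single ligands and the 15 pairs of them). The single-ligand libraries in these backgrounds were also known when the genes were chosen, and the 15 pair backgrounds use neither them nor Ctrl. All p-values of this kind come from edgeR (quasi-likelihood test) and are adjusted by Benjamini and Hochberg's method over all genes tested, apart from Ampd3, which had no count in HMW+SeV and was fitted with limma voom. Over the 5 genes fitted by edgeR and the 7 ligands, 19 of 35 differences were higher and 6 lower, against 20% and 18% of all differences tested. The number of falls grew when libraries were scaled by their totals alone, as given at the end.

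Upp1 rose on addition of 5 of the 7 ligands. cGAMP raised it by 1.37 ± 0.07 (log2, SE), with a mean of 264 CPM with and 129 CPM without it, and the level was higher in 17 of 21 backgrounds (adjusted p = 2.5e-48). LPS raised it by 1.17, SeV by 0.93, PAM by 0.53 and Zymosan by 0.39. HMW (0.06 ± 0.07, adjusted p = 0.735) and CpGB (0.06 ± 0.07, adjusted p = 0.596) did not pass. Of the 21 differences between ligands in this measure, 19 passed for Upp1, against 39.2% of differences over all genes, and PAM with Zymosan and HMW with CpGB were the exceptions. In pair backgrounds alone the additions were smaller than on single ligands, at 1.03 against 2.21 for cGAMP, 0.76 against 2.21 for LPS and 0.61 against 1.73 for SeV, and the change between the 2 sets of backgrounds was not tested. CpGB differed in sign between them: Upp1 rose by 0.78 ± 0.18 (adjusted p = 1.5e-04) when CpGB joined a single ligand and fell by 0.23 ± 0.08 (adjusted p = 0.0266) when it joined a pair.

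**Figure D2:**
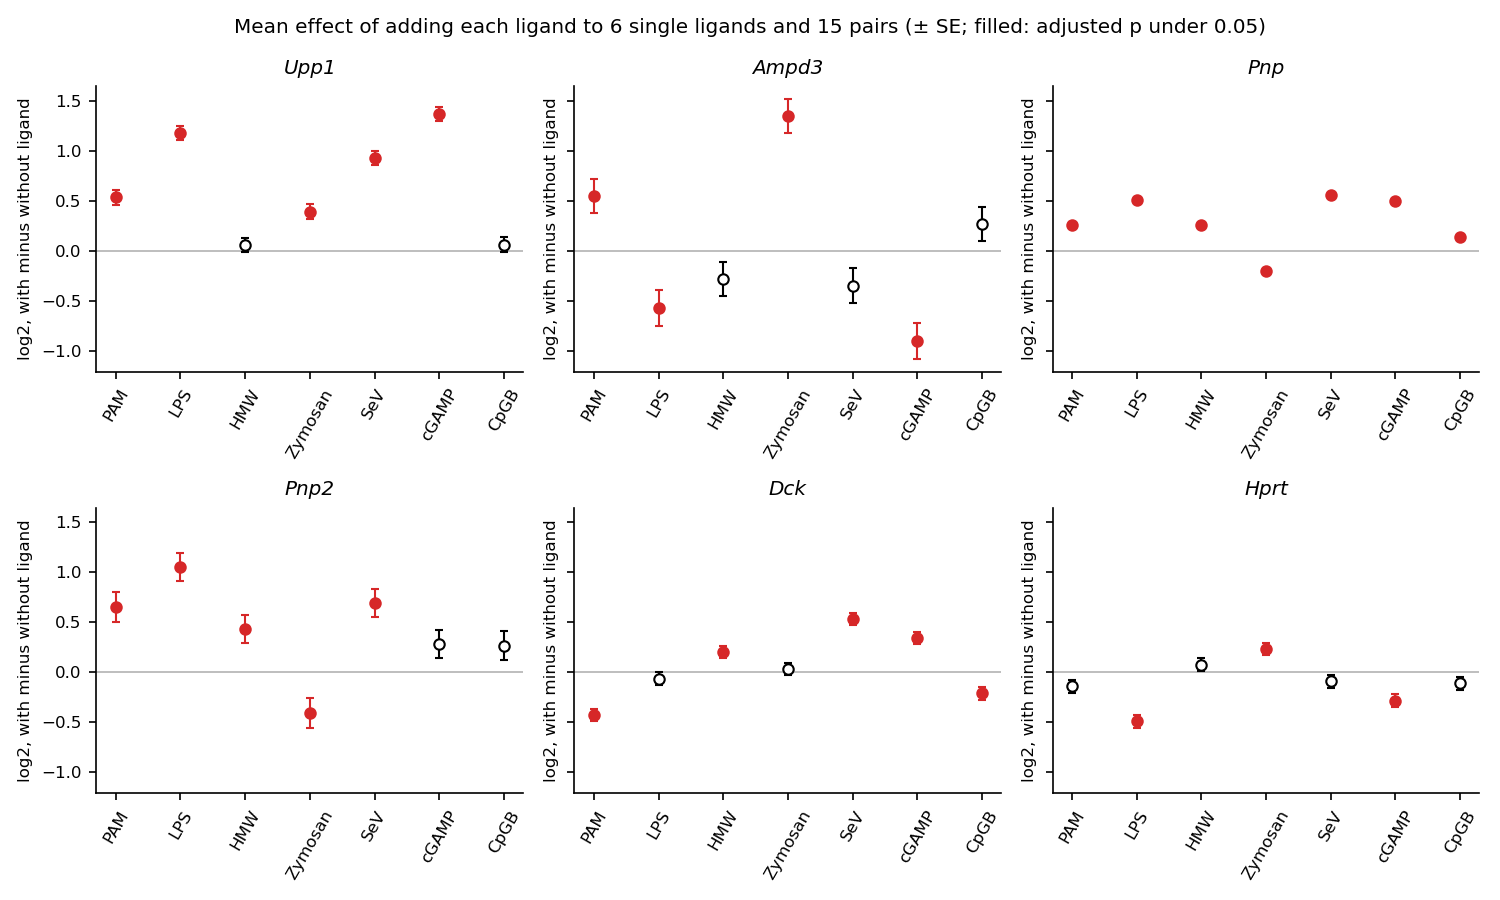
Log2 difference with minus without each ligand (points) ± SE (bars) for each gene, averaged over 21 backgrounds, with filled red points at an adjusted p under 0.05 (edgeR, and limma voom for Ampd3). Upp1 runs from 0.06 to 1.37, Ampd3 has Zymosan and PAM above 0 and LPS and cGAMP below, and Hprt has LPS and cGAMP below 0.

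Pairs were also compared with their single ligands one by one. The single-ligand libraries that serve as the reference were known when the genes were chosen, so these comparisons are less independent of that choice than those of triplets with pairs. Adding LPS to each of the 6 other single ligands raised Upp1 in 6 of 6 comparisons, cGAMP in 6 of 6, PAM in 5, SeV in 3, Zymosan and CpGB in 2 each and HMW in none. Over all 42 comparisons of a pair with 1 of its single ligands, 24 were higher and 0 lower for Upp1, at an adjusted p under 0.05 in edgeR, where 6.8% and 3.82% of all such tests were called. Of the 105 comparisons of a triplet with 1 of its pairs, 27 were higher and 1 lower, where 3.57% and 1.91% were called over all genes. The 1 fall was LPS+cGAMP+CpGB, at 102, 148 and 113 CPM, where Upp1 fell by 1.35 ± 0.30 from LPS+cGAMP (adjusted p = 0.00192). Over all 6 genes these comparisons gave 66 rises and 17 falls for pairs, which became 35 and 8 without replicate 3 and 9 and 8 falls without replicates 1 and 2, and 74 rises and 30 falls for triplets, which became 41 and 8 without replicate 3 and 17 falls without replicate 2. Scaling by library totals alone moved the falls of pairs the other way, to a higher number given at the end.

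Upp1 exceeded both single ligands by at least 2-fold in 3 of 21 pairs, the only calls of this kind among the 6 genes, where 0.353% of all tests were called above and 0.0504% below. Zymosan+cGAMP had 302, 320 and 305 CPM, above every library of Zymosan and of cGAMP, by 1.02 on the log2 scale over the nearer. LPS+cGAMP had 324, 201 and 384 CPM, a difference of 1.01. PAM+LPS had 118, 406 and 355 CPM, a difference of 1.04, and its first library lay within the range of LPS alone. All 3 differences were close to the 2-fold limit, and the count fell to 0 with DESeq2, with RLE or library-size scaling and without replicate 3, and to 1 with limma voom. None of the 3 pairs was called without replicate 2 either, where 2 other pairs were, and LPS+cGAMP was not called without replicate 1. With no fold limit 9 calls were made, 4 of Upp1 (LPS+Zymosan added, 0.88) and 5 of Pnp. No triplet of any of the 6 genes was called above or below all 3 of its pairs by edgeR, DESeq2 or limma voom, and none at an unadjusted p under 0.05, where 0.0115% of tests over all genes were called above and 0% below.

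**Figure D3:**
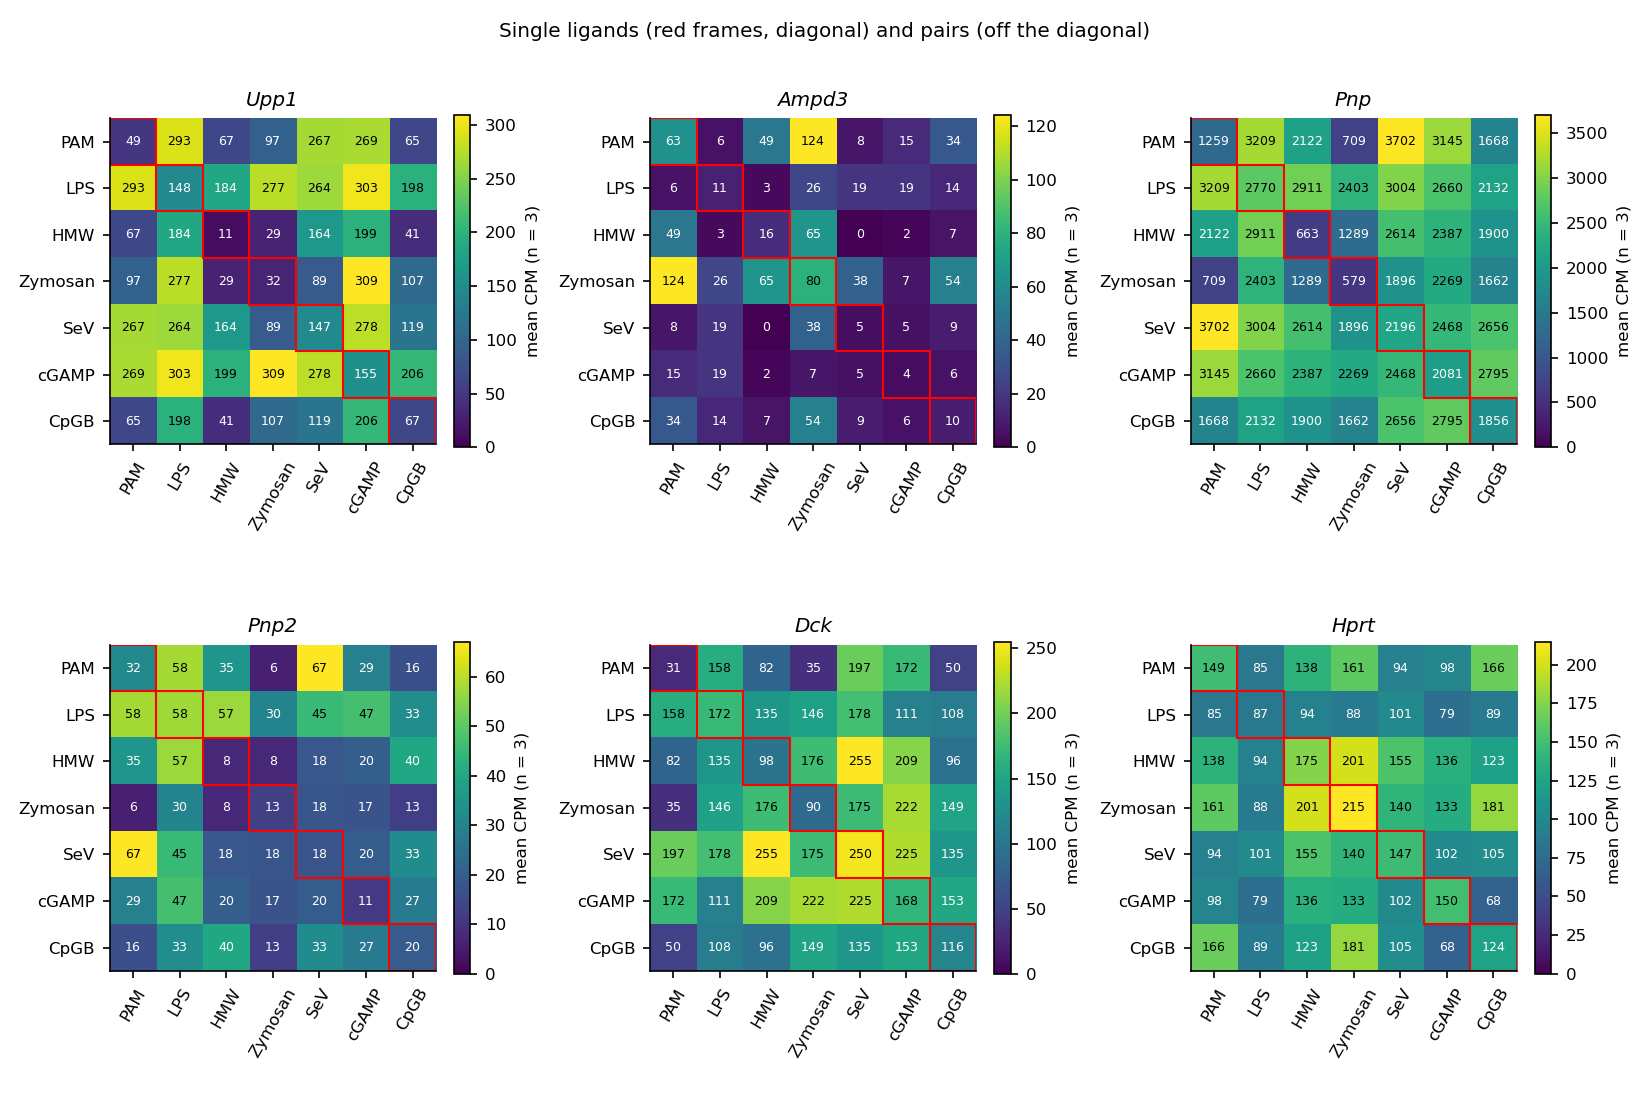
Mean level (CPM, colour scale per gene) of each gene under every pair of ligands, with single ligands on the diagonal in red frames; each cell is the mean of 3 libraries. The Upp1 cells of Zymosan+cGAMP (309), LPS+cGAMP (303) and PAM+LPS (293) are above their single ligands, and the Ampd3 panel is high only near PAM and Zymosan, with 124 for PAM+Zymosan.

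Pnp had the tightest values of the 6 genes, with a median coefficient of variation of 7.08% within groups, and was above Ctrl in every stimulated condition. The gene (ENSMUSG00000115338.2) is annotated at chr14:50931082-50965237 on the plus strand of GRCm38, a span that includes Pnp2. In Ctrl it stood at 194, 274 and 307 CPM. LPS gave 2665, 3009 and 2635 CPM, a ratio of counts of 10.4 to Ctrl (exact 95% interval 8.19 to 13.5, counting error only). SeV gave 2332, 2299 and 1956 CPM, cGAMP 2155, 2045 and 2044 CPM, and CpGB 1659, 1981 and 1927 CPM. PAM gave 1188, 1307 and 1283 CPM. HMW, at 632, 865 and 493 CPM, overlapped Zymosan at 451, 717 and 569 CPM, and all libraries of both lay above Ctrl. In that order of levels SeV overlapped cGAMP as well, and no other neighbours overlapped. All 63 conditions met the criterion against Ctrl (14.3% over all genes), with log2 differences of 1.15 to 3.81.

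Pnp rose on addition of 6 ligands and fell with 1. SeV raised it by 0.56 ± 0.03 (mean 2734 CPM with and 2022 CPM without, adjusted p = 6.4e-52), LPS by 0.51, cGAMP by 0.50, PAM by 0.26, HMW by 0.25 and CpGB by 0.13. With CpGB the level was higher in 10 of 21 backgrounds, with a mean of 2237 CPM with and 2206 CPM without it. Zymosan lowered it by 0.20 ± 0.03 (adjusted p = 1.6e-11), with the lower value in 17 of 21 backgrounds. In pair backgrounds Zymosan lowered Pnp by 0.26 and the CpGB difference was -0.06 (adjusted p = 0.139). On single ligands the Zymosan difference was -0.05 (adjusted p = 0.576) and CpGB raised Pnp by 0.63. PAM+Zymosan stood at 674, 700 and 754 CPM, below all 3 PAM libraries, and Pnp fell by 0.82 ± 0.14 from PAM (adjusted p = 1.8e-06). PAM+SeV, by contrast, reached 3855, 3487 and 3764 CPM, and adding Zymosan to it lowered Pnp by 0.80. The triplet PAM+HMW+SeV, at 3429, 3567 and 4112 CPM, was the highest group and overlapped PAM+SeV. Over the pair comparisons 22 of 42 were higher and 1 lower (6.8% and 3.82% over all genes). Over the triplet comparisons 22 of 105 were higher and 10 lower (3.57% and 1.91% over all genes), 4 of the falls on adding Zymosan. Without the 2-fold limit Pnp exceeded both single ligands in PAM+HMW (0.75), PAM+SeV (0.76), PAM+cGAMP (0.60), HMW+Zymosan (0.95) and cGAMP+CpGB (0.43).

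Pnp2, a close copy of Pnp inside its annotated span (ENSMUSG00000068417.8, chr14:50955992-50964749, plus strand), was counted far less often. Of the 30-base words in the Pnp2 transcripts, 46.1% also occur in other genes, 45.3% in Pnp, and the share is 15.5% in the last 500 bases, so reads of the 2 genes could be split between them. Of the Pnp words 28.1% are shared, mostly with Gm49342. Its share of the counts of both genes ran from 0.542% (exact 95% interval 0.176 to 1.26) with cGAMP to 2.81% with PAM+HMW+SeV, and was 2.86% (0.348 to 9.94) in Ctrl. Ctrl had 0, 12.5 and 9.60 CPM, which is 2 counts in all. LPS gave 44.7, 61.0 and 67.1 CPM, above every Ctrl library, a ratio of counts of 7.63 (1.95 to 65.7). PAM gave 26.2, 25.1 and 44.4 CPM, also above Ctrl, whereas HMW at 0, 13.5 and 9.29 CPM and cGAMP at 9.17, 11.7 and 12.3 CPM overlapped it. The 21 of 63 conditions that met the criterion against Ctrl (14.3% over all genes) became 7 with DESeq2, 8 without replicate 3, 11 without replicate 1 and 10 without Ctrl replicate 1.

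LPS raised Pnp2 by 1.05 ± 0.14 (adjusted p = 8.1e-12), higher in 19 of 21 backgrounds. SeV raised it by 0.69, PAM by 0.65 and HMW by 0.43, and Zymosan lowered it by 0.41 ± 0.15 (adjusted p = 0.0193). cGAMP, which raised Pnp, gave 0.28 ± 0.14 (adjusted p = 0.0768) and CpGB 0.27 ± 0.14 (adjusted p = 0.15). The HMW call was lost without replicate 1 (adjusted p = 0.0954) and without replicate 3 (0.454), the Zymosan call without replicate 3 (0.54), and cGAMP passed without replicate 2 (0.0061). Zymosan passed neither over pair backgrounds alone (-0.33, adjusted p = 0.103) nor over single ligands alone (-0.61, adjusted p = 0.192). Over single ligands alone LPS passed (1.48) and PAM, SeV and HMW did not, and over pair backgrounds alone all 4 passed. The highest levels were in PAM+HMW+SeV, at 66.8, 62.3 and 149.8 CPM, and PAM+LPS+SeV, at 41.6, 78.9 and 117 CPM. PAM+Zymosan was lowest at 10.5, 7.37 and 0 CPM, below all PAM libraries, a difference of -2.60 ± 0.87 from PAM. Its 2 counts gave a ratio to PAM of 0.145 (0.0163 to 0.611). The PAM level was known when the genes were chosen, so this is a description with no p.

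Hprt was the member with lower levels under stimulation. The gene (ENSMUSG00000025630.8) is X-linked, at chrX:52988137-53021659 on the plus strand. Ctrl had 194, 249 and 202 CPM and Zymosan 202, 218 and 224 CPM, which overlapped. HMW stood at 150, 188 and 186 CPM, cGAMP at 138, 152 and 160 CPM, PAM at 197, 151 and 100.0 CPM, SeV at 124, 176 and 141 CPM and CpGB at 146, 107 and 120 CPM. LPS was lowest, at 59.6, 88.7 and 112 CPM, below every Ctrl library, a ratio of counts of 0.425 (0.283 to 0.636). Of the 7 single ligands, LPS alone met the criterion for a lower level, which 4.95% of all genes and single ligands met. So did 11 of 21 pairs and 13 of 35 triplets, 25 of 63 conditions in all, where 9.03% of all genes and conditions did.

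The Hprt count moved with the processing. It was 41 when libraries were scaled by their totals alone, a scaling that shifts the median gene by -0.36 against Ctrl, 45 with all libraries thinned to 46564 counts, 10 with no filter on low counts, 16 without replicate 2 and 14 without Ctrl replicate 2. The median Hprt difference from Ctrl was -0.85, with a range of -1.62 to 0.01. Ctrl is also the group with the highest macrophage marker sum, and the part of that in the Hprt difference was not tested.

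Without use of Ctrl, LPS lowered Hprt by 0.49 ± 0.06 (mean 98.7 CPM with and 141 CPM without, adjusted p = 6.9e-12), with a lower level in 18 of 21 backgrounds. cGAMP lowered it by 0.28 ± 0.06 (adjusted p = 5.0e-05), and Zymosan raised it by 0.23 ± 0.06 (adjusted p = 0.00115). PAM (-0.14, adjusted p = 0.0714), CpGB, SeV and HMW did not pass, although PAM passed under RLE scaling (-0.17, adjusted p = 0.0226) and by DESeq2. In pair backgrounds LPS lowered it by 0.36, cGAMP by 0.19, and Zymosan raised it by 0.27. On single ligands Hprt also fell by 0.36 with CpGB (adjusted p = 0.00922) and fell by 0.33 with SeV (adjusted p = 0.0223), and Zymosan did not pass (0.14, adjusted p = 0.394). The 22 conditions with LPS lay between 69.5 and 125 CPM with a median of 96.0, and the 41 without LPS had a median of 136 and reached 216 in HMW+Zymosan+SeV. The lowest mean without LPS was cGAMP+CpGB, at 50.9, 39.2 and 114 CPM, which fell by 1.09 ± 0.32 from cGAMP (adjusted p = 0.0104) and in which the third library stood within the range of CpGB. All 9 Hprt calls between a combination and a smaller one were falls, 6 of 42 against single ligands and 3 of 105 against pairs, 6 of them on adding LPS. Over all genes 3.82% of tests against single ligands and 1.91% of tests against pairs were falls, and the Hprt triplet count is near that share. LPS+Zymosan, at 74.7, 84.8 and 104 CPM, was lower than Zymosan by 1.297 ± 0.27, and the libraries of the 2 groups did not overlap. Zymosan was the highest single ligand for Hprt and was known when the genes were chosen, so no p is given.

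Dck separated SeV and PAM. The gene (ENSMUSG00000029366.10) lies at chr5:88764996-88783281 on the plus strand. Ctrl had 27.7, 37.4 and 9.60 CPM, which is 6 counts, and PAM overlapped it at 39.4, 25.1 and 27.8 CPM. SeV gave 296, 215 and 239 CPM, above all other single-ligand libraries, with a ratio of counts to Ctrl of 10.5 (4.67 to 29.2). LPS had 164, 177 and 175 CPM and cGAMP 119, 181 and 203 CPM. CpGB had 77.6, 91.9 and 180 CPM, HMW 66.5, 152 and 74.4 CPM and Zymosan 64.4, 134 and 70.0 CPM. The libraries of LPS, cGAMP, CpGB, HMW and Zymosan overlapped their neighbours in this order, while SeV overlapped none. The criterion against Ctrl was met in 60 of 63 conditions (14.3% over all genes), or 36 with all libraries thinned to equal totals, and the exceptions in the full data were PAM, PAM+CpGB and PAM+Zymosan.

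SeV raised Dck by 0.54 ± 0.06 (mean 171 CPM with and 127 CPM without, adjusted p = 3.4e-15), cGAMP by 0.34 and HMW by 0.20 (adjusted p = 0.012). PAM lowered it by 0.43 ± 0.06 (adjusted p = 1.3e-10), with a lower level in 18 of 21 backgrounds, and CpGB lowered it by 0.21 ± 0.06 (adjusted p = 0.00451). LPS (-0.07 ± 0.07, adjusted p = 0.403) and Zymosan (0.03 ± 0.06, adjusted p = 0.749) did not pass over all backgrounds. The HMW call was lost without any 1 replicate (adjusted p = 0.0523 to 0.0931) and the CpGB call without replicate 2 (0.0822) or 3 (0.0908). Over pair backgrounds alone HMW did not pass (0.14, adjusted p = 0.289), and over single ligands alone CpGB did not (-0.05, adjusted p = 0.821). For LPS the 2 kinds of background differed in sign, with a rise of 0.37 ± 0.12 (adjusted p = 0.00494) on single ligands while Dck fell by 0.24 ± 0.08 (adjusted p = 0.00537) on pairs, and the difference between them was not tested. PAM lowered Dck from Zymosan by 1.26 ± 0.39 and from CpGB by 1.32 ± 0.36: PAM+Zymosan had 31.6, 29.5 and 44.9 CPM and PAM+CpGB 66.8, 44.4 and 40.0 CPM, below all Zymosan and all CpGB libraries. PAM+SeV was high again at 235, 173 and 182 CPM, a difference of 2.65 ± 0.34 from PAM. PAM was the lowest single ligand for Dck and was known when the genes were chosen, so no p is given. HMW+SeV had the highest mean, at 213, 245 and 307 CPM, and overlapped SeV alone. In all, 11 of 42 Dck pair comparisons were higher and 3 lower (6.8% and 3.82% over all genes). Of 105 triplet comparisons 11 were higher and 6 lower (3.57% and 1.91% over all genes), 3 of these falls on adding PAM and 3 on adding LPS.

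Ampd3 was high with PAM and Zymosan and sparse elsewhere: in conditions with neither of them its mean reached at most 19.1 CPM (LPS+SeV). The gene (ENSMUSG00000005686.17) lies at chr7:110768206-110812405 on the plus strand. No Ctrl library had a count, which allows up to 11.7 CPM. Zymosan gave 101, 63.99 and 74.6 CPM and PAM 65.6, 45.2 and 77.8 CPM, at least 6.60-fold and 5.31-fold above Ctrl. HMW followed at 24.9, 17.9 and 4.65 CPM and LPS at 29.8, 0 and 4.47 CPM. CpGB had 0, 10.2 and 18.4 CPM, SeV 9.56, 0 and 4.69 CPM, and cGAMP 0, 5.84 and 6.14 CPM. Zymosan and PAM overlapped each other and lay above every library of the other 5 ligands, which overlapped among themselves. SeV and cGAMP had 2 counts each over the group and Ctrl none, both at or under the floor of 3 counts, so no fold is given. PAM+Zymosan was highest of all groups, at 94.7, 133 and 145 CPM, at least 11.1-fold above Ctrl. The criterion against Ctrl was met in 21 of 63 conditions (14.3% over all genes), and in 9 without replicate 3.

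LPS, SeV and cGAMP were next added to PAM or Zymosan. Those references were taken because Ampd3 was known to be high in their libraries, so the log2 differences from them (± SE) are given as a description, with no p. In PAM+LPS it stood at 18.2, 0 and 0 CPM, below all PAM libraries, a difference of -3.89 ± 0.78 from PAM. Its 2 counts gave a ratio to PAM of 0.0556 (0.00647 to 0.217), with the exact 95% counting interval in parentheses. PAM+SeV had 9.40, 6.42 and 7.01 CPM, a difference of -2.95 ± 0.76 and a ratio from 3 counts of 0.119 (0.0234 to 0.38). PAM+cGAMP had 17.7, 6.84 and 20.5 CPM, a difference of -2.02 ± 0.65. With none of these 3 additions did a library reach the lowest one of PAM alone.

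Zymosan+cGAMP had 0, 12.8 and 9.68 CPM, a difference of -3.13 ± 0.68 from Zymosan. LPS+Zymosan had 17.2, 26.8 and 34.7 CPM, a difference of -1.54 ± 0.52. Zymosan+SeV, at 32.4, 39.8 and 43.3 CPM, also lay below Zymosan in all libraries. The pair PAM+Zymosan fell by 3.00 with LPS, by 2.95 with cGAMP, by 1.40 with SeV and by 1.27 with HMW. With CpGB it stood at 53.7, 113 and 49.2 CPM, which overlapped the pair. Not every addition of these ligands gave a lower value: LPS added to SeV gave 1.77 ± 1.07 (adjusted p = 0.333) and cGAMP added to LPS 0.80 ± 0.88 (adjusted p = 0.75). HMW+SeV had no count in 3 libraries, which allows up to 6.03 CPM there.

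**Figure D4:**
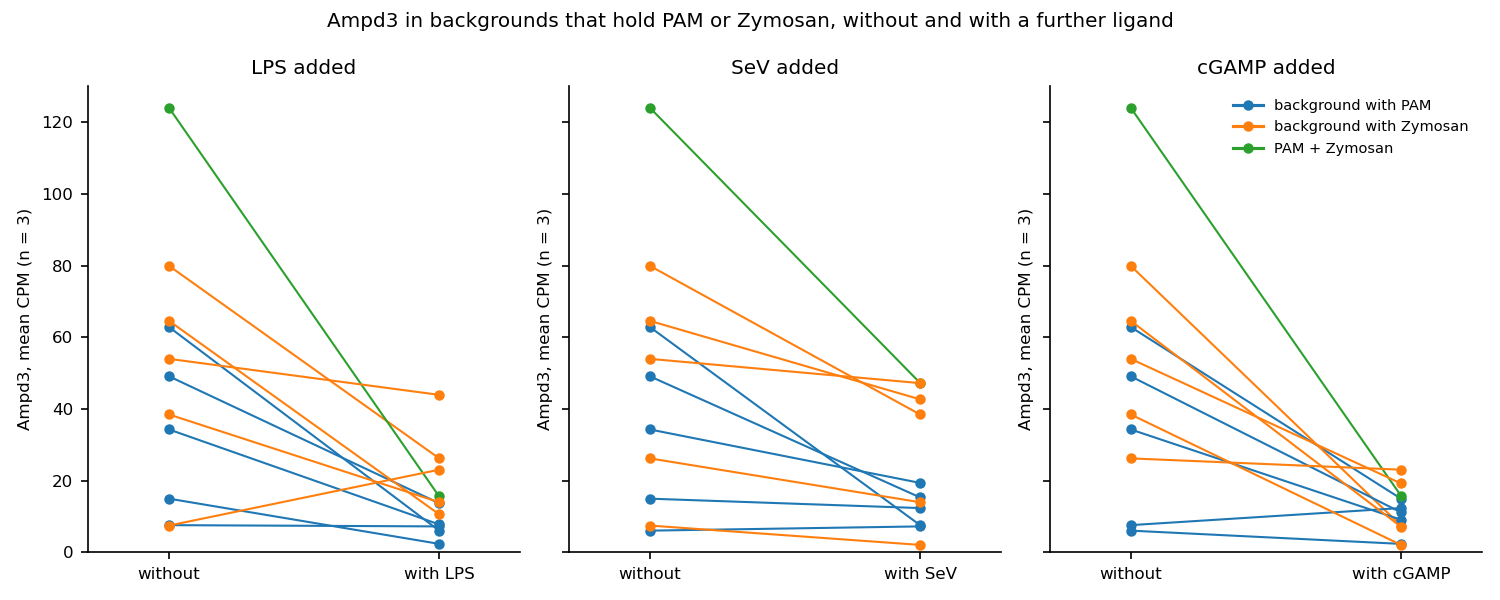
Mean Ampd3 level (CPM) of the 11 backgrounds that hold PAM or Zymosan, each without and with LPS, SeV or cGAMP, joined by lines; each end is the mean of 3 libraries. In each panel 10 of 11 lines go down, from a median of 49.1 to 13.7 with LPS, 15.3 with SeV and 11.2 with cGAMP.

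Among the 11 backgrounds that hold PAM or Zymosan, the Ampd3 mean was lower with than without LPS in 10, SeV in 10, cGAMP in 10, HMW in 7 and CpGB in 5. These backgrounds were picked because Ampd3 was high in PAM and Zymosan, so the counts are a description. Over all 21 backgrounds limma voom gave a rise of 1.35 ± 0.17 with Zymosan (adjusted p = 3.8e-12), higher in 19 of 21, and of 0.55 ± 0.17 with PAM (adjusted p = 0.0062). Ampd3 fell by 0.90 ± 0.18 with cGAMP (adjusted p = 5.3e-06) and fell by 0.57 ± 0.18 with LPS (adjusted p = 0.00332). The level was nonetheless higher with LPS in 10 of 21 backgrounds and with cGAMP in 7. Both means take in the 11 backgrounds with PAM or Zymosan, where it was lower in 10 for each ligand. SeV (-0.35 ± 0.17, adjusted p = 0.108), HMW (-0.28) and CpGB (0.26) did not pass. By limma voom 20.2% of all differences were higher and 18.9% lower. In pair backgrounds alone Zymosan (1.204), cGAMP (-0.83) and LPS (-0.49, adjusted p = 0.0444) passed, and PAM (0.42, adjusted p = 0.113) did not. The called pair comparisons were 4 higher and 6 lower of 42 (6.8% and 3.82% over all genes), and the triplet comparisons 5 higher and 10 lower of 105 (3.57% and 1.91%). Every lower call for pairs came on adding LPS, SeV or cGAMP, 2 each, and of the 10 for triplets 3 came on adding LPS, 4 on adding cGAMP, 2 on adding SeV and 1 on adding HMW. The pair falls were measured from PAM, Zymosan or HMW, the single ligands with the highest Ampd3, known beforehand. A fall could hardly be called where Ampd3 was near the floor, so these counts by ligand are a description. Zymosan gave 3 of the 4 rises in pairs. HMW+SeV, where Ampd3 was at 0, entered 1 of the 6 falls and 3 of the 5 rises of triplets.

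The ligands called were thus not the same for the 6 genes, and differences between genes were not tested. By ligand, in the test over 21 backgrounds, PAM raised 4 of the 6 (Upp1, Pnp, Pnp2 and Ampd3) and lowered Dck, where 20.1% of all genes rose and 17.1% fell. LPS raised Upp1, Pnp and Pnp2 and lowered Hprt and Ampd3 (28.5% and 28% of all genes), although Ampd3 was higher with LPS in 10 of 21 backgrounds. HMW raised Pnp, Pnp2 and Dck (7.73% rose, 2.2% fell), and the Pnp2 and Dck calls were lost with a replicate left out. Zymosan raised Upp1, Hprt and Ampd3 and lowered Pnp and Pnp2 (20.1% and 20.4%). SeV raised Upp1, Pnp, Pnp2 and Dck (18.9% and 13.7%), and cGAMP raised Upp1, Pnp and Dck and lowered Hprt and Ampd3 (27.1% and 28.4%). CpGB raised Pnp, although in 10 of 21 backgrounds only, and lowered Dck, which is near the shares over all genes (17.3% and 16.4%). By limma voom, the source of the Ampd3 calls, the shares were 20.1% and 18.6% for PAM, 28.8% and 29.2% for LPS, 6.95% and 2.67% for HMW and 20.9% and 20.7% for Zymosan. They were 19.3% and 14.4% for SeV, 27.6% and 29.4% for cGAMP and 17.4% and 17.2% for CpGB. Differences between ligands passed in 17 of 21 tests for Pnp and for Dck, 15 for Ampd3 (limma voom, 40.3% over all genes), 13 for Hprt and 12 for Pnp2.

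Group means were also ordered by the number of ligands, without a test of a trend. The median Upp1 mean was 67.0 CPM over single ligands, 198 over pairs and 225 over triplets. For Pnp the medians were 1856, 2403 and 2560 CPM, and for Pnp2 17.7, 29.3 and 35.8 CPM. Hprt medians were 149, 105 and 109 CPM, Dck medians 116, 153 and 134 CPM and Ampd3 medians 11.4, 13.8 and 14.0 CPM. The highest Ampd3 triplet (PAM+Zymosan+CpGB, 71.9 CPM) lay below Zymosan alone (80.0 CPM), and the highest Dck triplet (HMW+SeV+cGAMP, 233 CPM) below SeV alone (250.02 CPM), with overlapping libraries in both cases.

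**Figure D5:**
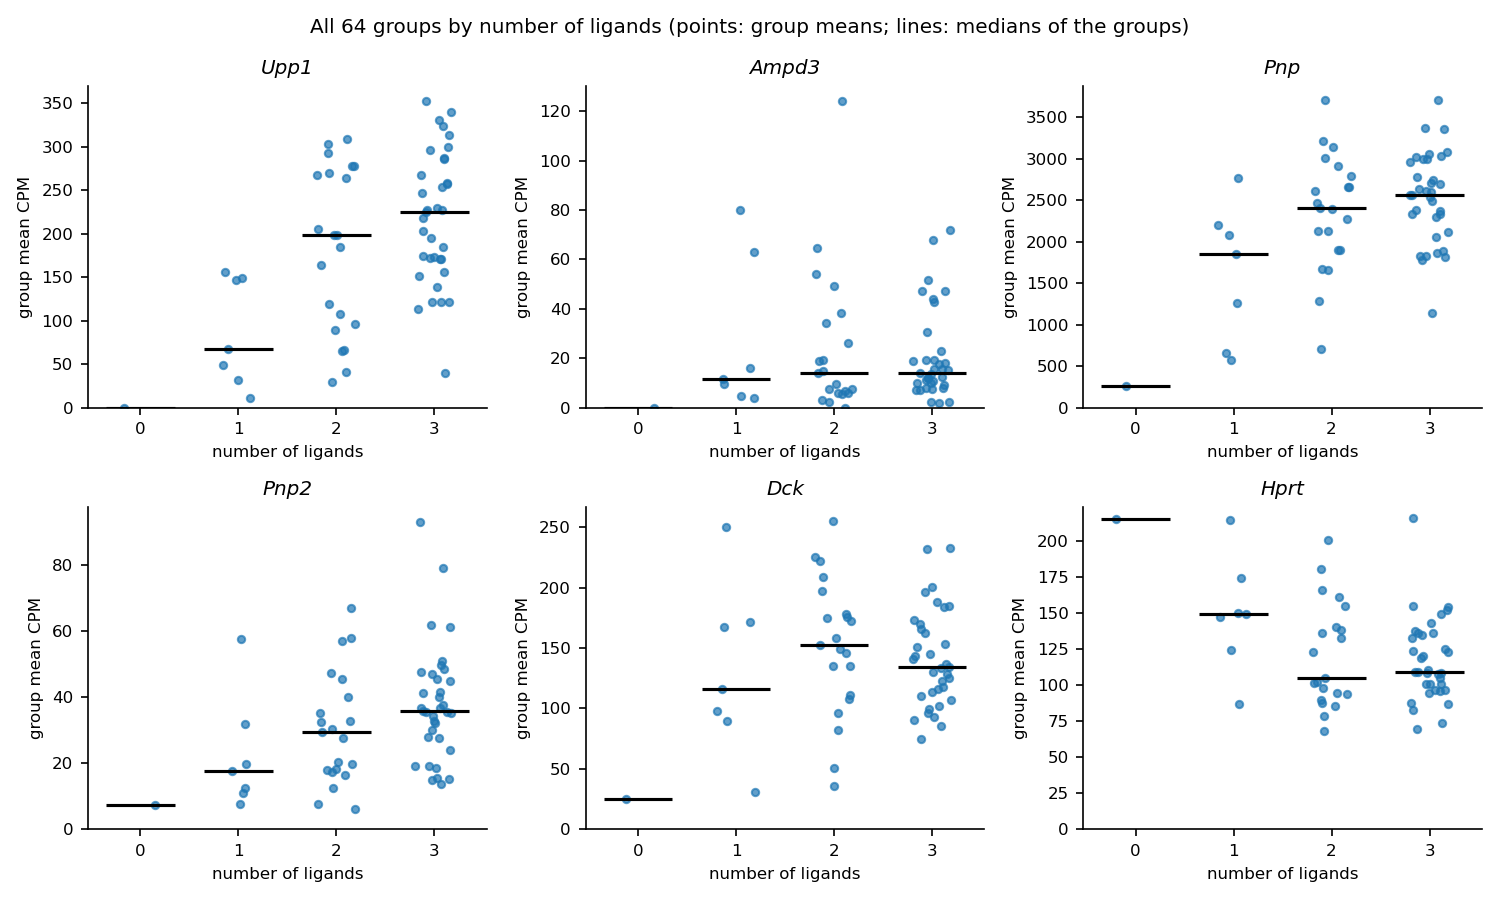
Group means (CPM, 1 point per group of 3 libraries) of each gene by the number of ligands, with a line at the median of each column. The Upp1 medians are 67.0, 198 and 225 for 1, 2 and 3 ligands, while the Ampd3 medians stay between 11.4 and 14.0 with the high points in groups that hold PAM or Zymosan.

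Across the 64 group means of log2 CPM, Upp1 and Pnp had a Pearson correlation of 0.824, Pnp and Pnp2 of 0.705 and Pnp and Dck of 0.66. By Spearman's rank these were 0.698, 0.751 and 0.499. Hprt ran against Pnp (-0.658), Upp1 (-0.633) and Pnp2 (-0.641), or -0.658, -0.548 and -0.613 by rank. Ampd3 had 0.395 with Hprt and -0.404 to -0.312 with the other 4, or 0.248 and -0.433 to -0.184 by rank. The points share ligands and, within a group, libraries and their depth, so the values are descriptive. They also include Ctrl, where Upp1 and Ampd3 had no count, and the single ligands known when the genes were chosen. By the Pearson correlation over 4500 genes, the nearest to Upp1 were Cd274 (0.925), Rasa4 (0.9) and Ccrl2 (0.892). Nearest to Pnp were Gbp2 (0.944), Irg1 (0.941) and AW112010 (0.94), and to Pnp2 Ch25h (0.815), Cfb (0.785) and Xkr8 (0.783). Dck lay closest to Ifit3 (0.845), I830012O16Rik (0.841) and Slc7a8 (0.839). Ampd3 lay closest to Txnrd1 (0.839), Mcoln2 (0.82) and Vcp (0.813), and Hprt to Taldo1 (0.833), Clec4n (0.826) and Creg1 (0.805). These lists moved with small changes: Upp1 kept 1 of its 3 with a prior count of 0.5, Ampd3 kept 1 without replicate 1 and Pnp2 kept 1 without replicate 2.

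The rest of nucleotide metabolism was read from 5 lists of 70 genes in all, of which 68 were in the table and 22 passed the low-count filter. Of 12 other salvage enzymes, 3 were tested, and over 7 ligands 1 of 21 differences was a rise and 8 were falls, with a median of -0.22. Aprt, which salvages adenine, fell by 0.40 with LPS, fell by 0.27 with CpGB, fell by 0.23 with PAM and fell by 0.22 with SeV, and rose by 0.28 with Zymosan. Dguok, a mitochondrial deoxyguanosine kinase, fell by 0.65 ± 0.15 with cGAMP (edgeR, adjusted p = 7.5e-05) and fell by 0.54 with PAM. Of 21 breakdown genes 7 were tested, 2 of them with a group at 0 and no edgeR value, and 14 of 35 differences were rises and 7 falls (median 0.08). Entpd1, an ectoenzyme that breaks down ATP and ADP, fell by 1.08 ± 0.20 with CpGB and fell by 0.79 with PAM, and rose by 0.71 with cGAMP. Samhd1, a deoxynucleotide hydrolase chosen after its values were seen, rose with cGAMP (0.98), SeV (0.77), LPS (0.75) and HMW (0.20), fell by 0.22 with PAM and fell by 0.13 with Zymosan.

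Genes that build nucleotides anew were the next list. Of 7 tested genes of new purine synthesis (17 listed), 2 of 49 differences were rises and 7 falls, with a median of -0.08. Paics, an enzyme of the purine ring's assembly, fell by 0.66 ± 0.17 with LPS and by 0.41 with Zymosan, and Adss, which leads from IMP to AMP, rose by 0.70 ± 0.14 with Zymosan. Only 2 of 13 genes of pyrimidine synthesis and deoxynucleotides were tested, with 4 rises and 1 fall of 14 (median 0.05). Cmpk2, a mitochondrial nucleotide kinase induced by interferon, rose by 1.80 ± 0.03 with cGAMP, 1.28 with SeV, 1.27 with LPS and 0.25 with HMW. Of 3 nucleoside transporters tested (7 listed), 8 of 21 differences were rises and 3 falls (median 0.07). Slc28a2, which carries purine nucleosides into cells, rose by 1.499 ± 0.15 with LPS, 1.10 with SeV, 0.83 with CpGB, 0.69 with PAM and 0.46 with Zymosan. Slc29a3 fell by 0.79 with PAM, fell by 0.52 with CpGB and fell by 0.40 with LPS, and rose by 0.60 with cGAMP and 0.37 with Zymosan. The background for these counts is the 20% higher and 18% lower over all genes, whose medians ran from -0.04 with cGAMP to 0.02 with HMW. The 11 transporter calls became 5 without replicate 1 or 2, the 9 calls of new purine synthesis 2 without replicate 1 or 3, and the 9 of other salvage enzymes 5 without replicate 2 or 3.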

How the data were processed

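RNA was measured in 64 groups of 3 libraries of mouse bone marrow-derived dendritic cells. Per the labels' protocols, RNA was reverse transcribed with template switching, pooled by barcode, tagmented and sequenced. The submitters' processing notes name BWA 0.7.15 and the build mm10, while the annotation and the rules for collapsing UMIs and for reads that match several genes are not given in the sources used here. The deposited values are whole-number UMI counts per gene symbol, made by the authors without normalization.

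The 6 genes and the other lists were chosen with earlier results of these data known. The control group enters 63 contrasts, which therefore share its 3 libraries. Counts were scaled by TMM and tested with edgeR 4.0.16 (R 4.3.3) in 1 model with a coefficient per group (128 residual degrees of freedom), after filterByExpr left 4720 of 23481 genes. An adjusted p under 0.05 was called, with a log2 difference of at least 1 against Ctrl and for combinations above both single ligands. An SE is the log2 difference divided by the root of its F statistic. For 167 genes with a whole stimulated group at 0 the edgeR value of an added ligand was void. For Ampd3 alone, limma 3.58.1 (voom), added after seeing the data, was used in its place. Where a group held no count, a fold is a bound against 3 counts over that group. Intervals are exact (Clopper-Pearson, 95%), and they and the floors cover counting error only.

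Named beside the 6 genes were the 3 most alike in pattern to each (Pearson's r over 64 groups, computed on mean log2 CPM with a prior count of 2 among genes averaging 20 CPM or more), and from the lists, with the same limit of 20 CPM, the largest called rise and fall for each ligand. Promoter windows are RefSeq's for GRCm38.p6, and gene positions are from GENCODE on GRCm38. All 6 symbols matched, no promoter window was used for Pnp2, and 21911 symbols of the table matched the annotation. The macrophage marker Adgre1 and the neutrophil marker Ly6g were not used here.

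On simulated data for the same 4720 genes, an adjusted p under 0.05 with no fold limit recovered 20.9% of 2-fold and 75.8% of 4-fold changes for LPS against Ctrl. It recovered 28.4% and 74.2% for LPS+SeV against SeV, and 100% of both for adding LPS. Each gene had a fixed spread and the same mean in all groups, apart from planted LPS changes that were equal in every background. The shares therefore do not cover the fold limit used against Ctrl, or effects that differ between backgrounds. No 2 libraries of a group were identical. The alternatives were RLE and library-size scaling, no low-count filter, DESeq2 1.42.0, limma voom, a replicate block, thinning to 46564 counts, each replicate left out and backgrounds split by size.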

Additional observations from a re-analysis of the deposited data

How the results depend on the processing

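Counts of calls were recomputed under the alternatives that could give them, where 172 values stayed within 1.5 times and 35 moved. The genes of like pattern were recomputed with another prior count and with each replicate left out. Against Ctrl, Ampd3 had 9 to 17 higher conditions with a replicate left out. Pnp2 had 8 to 19, 10 to 19 with a Ctrl library left out, and 7 by DESeq2. Dck had 36 after thinning, a setting in which Ampd3 and Pnp2 were not tested. Hprt had 16 to 26 lower conditions with a replicate left out, 14 to 29 with a Ctrl library left out, 41 with library size alone, 45 after thinning and 10 with no low-count filter. The 6 falls on adding a ligand became 10 with library size alone. Rises of pairs over single ligands were 35 to 55 and falls 8 to 9 with a replicate left out, and falls were 27 with library size alone and 8 with no filter. Rises of triplets were 41 to 61 and falls 8 to 22. Pairs above both single ligands numbered 0 to 3 with a replicate left out, 0 with RLE, library size or DESeq2, 1 by limma voom and 9 with no fold limit. For the lists, calls with a replicate left out were 5 to 7 for other salvage, 2 to 6 for new purine synthesis and 5 to 11 for transporters, and library size alone gave 15 for new purine synthesis and 9 for pyrimidine synthesis.

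Signs turned in 9 cases. Over pair backgrounds alone, adding CpGB gave -0.23 for Upp1 and -0.063 for Pnp, adding Zymosan -0.033 for Dck and adding SeV 0.0076 for Hprt. Over single backgrounds alone, adding CpGB gave -0.20 for Ampd3, adding LPS 0.37 for Dck and adding HMW -0.034 for Hprt. Adding LPS gave -0.13 to 0.00071 for Dck with a replicate left out, the highest without replicate 2, and adding Zymosan -0.013 for Dck with library size alone. Leaving out a replicate also leaves fewer libraries, and other causes were not tested.

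The median correlation of residuals was 0.005, 0.011 and 0.008 for libraries with the same replicate number and -0.004 otherwise. Counting error in sparse genes can hide a shared part, so these values cannot decide whether replicate numbers pair libraries. The common coefficient of variation in edgeR was 9.45% with a replicate block and 10.3% without it. With the replicate block, the 35 values of an added ligand kept their side, cGAMP for Upp1 being 1.38 and LPS for Hprt -0.49, and the counts against Ctrl were 62, 21, 63, 22, 60 and 25 for Upp1, Ampd3, Pnp, Pnp2, Dck and Hprt. For Pnp2, Ampd3 and the Ctrl group, single counts can set a level.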
